A study of Homo sapiens with 4 samples.

Results

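The SRSF and hnRNP splicing regulators were followed through RNA-seq libraries of HGC-27, an established human gastric cancer cell line, that had been treated with the peptide GLUP or left as control. The rule for the members uses gene symbols and no measured value, although earlier results of these data were known when the families were picked. The members were the protein-coding genes named SRSF with a number (12 genes) or HNRNP (25 genes), together with TRA2A, TRA2B, PTBP1, PTBP2 and PTBP3, which made 42 members among 62443 gene IDs in the deposited table. Pseudogenes were left out. The study set out to find which pathways respond to GLUP. GLUP is a ring-closed synthetic peptide that carries repeats of a TEAD4-binding element and was built to hold molecules of TEAD4 together; TEAD4 is a DNA-binding transcription factor of the Hippo pathway. There were 2 GLUP libraries, from cells given 10 μg/ml GLUP, and 2 control libraries, whose labels give the treatment as none and whose cells received the peptide's buffer according to the methods. The treatment time is stated as 12 h in the study's results and as 48 h in its methods. Both groups were HGC-27 cells in the same medium, and the labels name no altered gene in either. Replicates are biological replicates of this 1 line according to the methods, so the p-values below measure the spread between cultures of a single line.

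SR proteins, the products of the SRSF genes, bind exons through RNA recognition motifs and draw the splicing machinery to nearby splice sites through a tail rich in arginine and serine. The hnRNPs coat newly made transcripts and often block the use of a site, so that an exon's fate depends on which of the competing proteins reaches it. Many genes of both families limit their own output by splicing in an exon that sends the transcript to nonsense-mediated decay. In cancer cells, shifts in the balance of SR proteins and hnRNPs are known to change the isoforms of growth and death regulators. The files give 1 value per gene, so which isoforms were made was not analysed here.

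Because GLUP was made to act on TEAD4, the promoters of the members were searched for CATTCC, the core of the motif that TEAD factors bind, on both strands, where it reads GGAATG on the other strand. RefSeq promoters of GRCh38.p14 were found for 38 of the 42 members, and the 250 bases before each start were read. The letters stood in front of 4 members, shown here with 30 bases on each side, 5′ to 3′ on the gene's strand and with the motif in capitals.
HNRNPC: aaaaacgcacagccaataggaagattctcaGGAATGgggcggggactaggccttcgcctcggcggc
HNRNPH1: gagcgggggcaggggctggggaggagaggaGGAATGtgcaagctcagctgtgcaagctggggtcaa
HNRNPL: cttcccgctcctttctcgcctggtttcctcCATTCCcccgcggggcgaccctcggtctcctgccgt
HNRNPA0: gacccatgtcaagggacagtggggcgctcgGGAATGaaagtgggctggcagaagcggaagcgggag

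The windows lie on the minus strand at chr14:21269443-21269508 (HNRNPC), chr5:179634946-179635011 (HNRNPH1), chr19:38852453-38852518 (HNRNPL) and chr5:137754542-137754607 (HNRNPA0) of GRCh38.p14. The motif in front of HNRNPC was the closest to the start, 36 to 31 bases before it. Of 53 member promoters, 4 held the motif (7.547%), against 4175 of 35116 promoters in the whole table (11.889%). These members went different ways in the libraries: HNRNPC was the member with the highest fold change and HNRNPL the one with the lowest, as described below, and HNRNPA0 stayed under 0.3 FPKM throughout. A match of 6 letters is a description of the sequence and says nothing about whether TEAD4 was bound there.

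Values are FPKM, fragments per kilobase of transcript scaled to the mapped reads of the library, as the authors deposited them, and summed to between 909735 and 949919 per library. Depth is unknown. The control libraries were less alike than the GLUP libraries: the Pearson correlation of log2(FPKM + 1) across the 7588 genes tested was 0.933 between the controls and 0.986 between the GLUP libraries, and control replicate 2 correlated at 0.873 and 0.886 with the GLUP libraries, below control replicate 1 (0.952 and 0.957). Mitochondrial genes held 27.2 to 29.7% of each library's FPKM. VIM, the mesenchymal filament gene, lay between 293 and 387 FPKM. Of the epithelial markers KRT8 reached no more than 2.25 FPKM and EPCAM and CDH1 stayed under 0.2, and all 6 gastric mucosa markers stayed under 1 FPKM in every library, so the gastric origin on the label was not visible in these genes. The summed FPKM of 4 fibroblast genes was 27.3 to 45.4, most of it from DCN (26.5 and 41.3 in control, 20.1 and 22.3 in GLUP), while COL1A1 read 2.97 and 3.64 in control and 6.90 and 4.42 in GLUP, and the leukocyte gene PTPRC was at or near 0. A part of any of these in the values below was not tested.

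A gene was tested where its 4 libraries averaged 1 FPKM or more, which 33 members did: 12 SRSF and TRA2 genes, 20 HNRNP genes and PTBP3. Fold changes are GLUP minus control on log2(FPKM + 1), from limma fitted to all 7588 genes, with Benjamini-Hochberg adjustment over all of them. None of the 33 had an adjusted p under 0.05, where 0.0264% of all genes tested did, and the lowest adjusted p of a member was 0.10. At an unadjusted p under 0.05 there were 9 members (27.3%), all with a negative fold change. Of all genes tested, 31.7% had such a p, and 25.4% had it with a negative fold change. By the rule used below for calling a gene lower (a fold over 2 and an unadjusted p under 0.05), 6 members were lower in GLUP, 18.2% of those tested against 14.5% of all genes. By the same rule 0 members were higher, against 4.67% of all genes. Leaving out control replicate 1 gave 12 members lower, 2 higher and 19 past the adjusted p, in a fit where 23.0, 12.9 and 53.2% of all genes were lower, higher and past it. Leaving out control replicate 2 gave 5 lower (12.5% of all genes) and 9 past the adjusted p (18.7%). Leaving out either GLUP library gave 3 lower (5.76 and 5.82% of all genes). SRSF6, SRSF11 and HNRNPLL met the rule for lower in all 4 of these. The GLUP values were both under the 2 control values for 19 members (57.6%, against 49.7% of all genes) and both over them for 7 (21.2%, against 17.5%). These shares were close to those of the whole table, and the results lie in which members went which way.

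**Figure D1:**
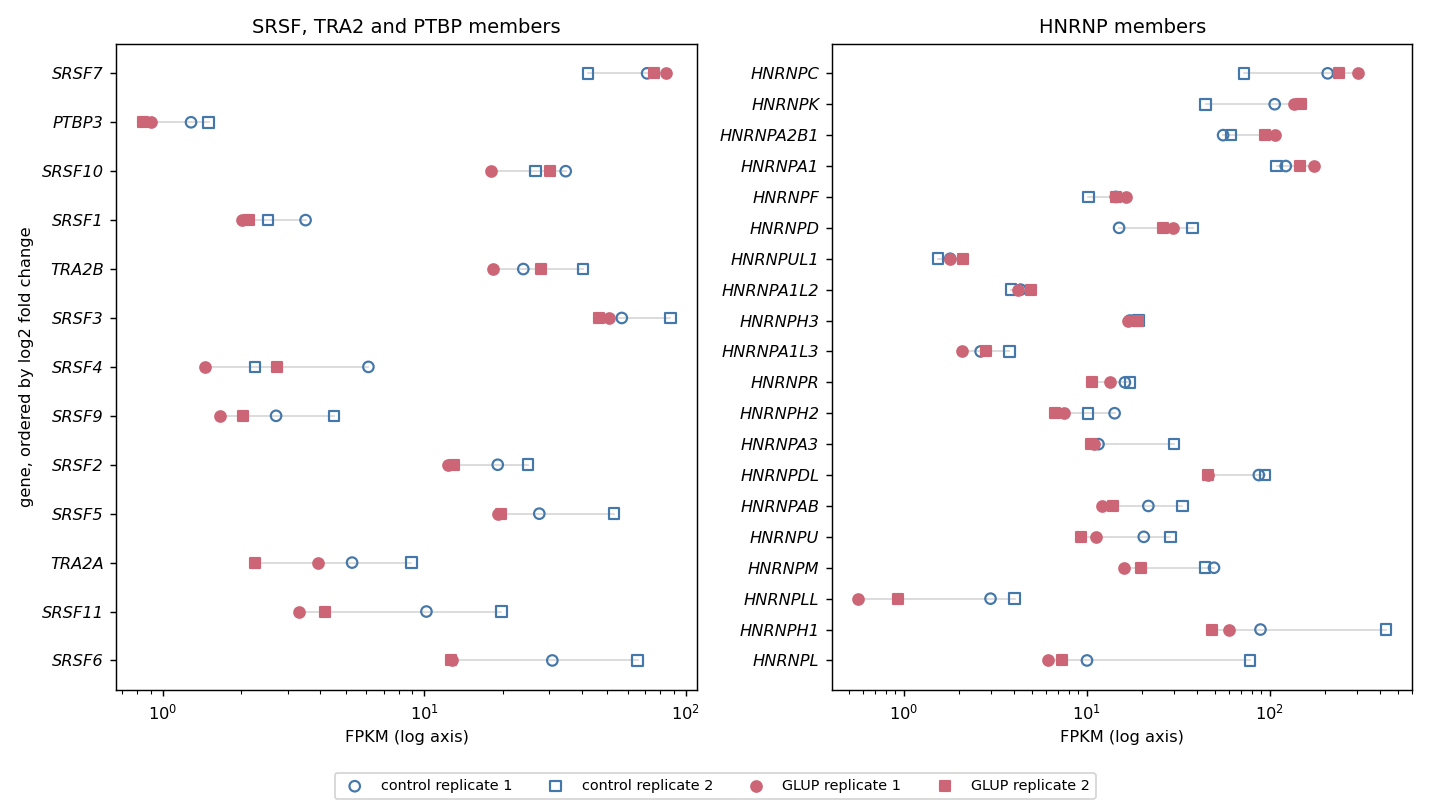
FPKM of the 33 members tested in each of the 4 libraries, on a logarithmic axis, with SRSF, TRA2 and PTBP genes on the left and HNRNP genes on the right, from the highest fold change at the top to the lowest. The GLUP libraries (filled) lie close together for most genes, whereas the control libraries (open) spread widely for genes such as HNRNPH1, HNRNPL, HNRNPC and HNRNPK.

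The SR proteins had mostly negative fold changes, as did the table as a whole. Of 12 SRSF and TRA2 genes tested, 11 had a negative fold change (91.7%, against 66.7% of all genes tested). Both GLUP libraries lay below both controls for 8 (66.7%, against 49.7% of all genes). The rule for lower was met by 2, SRSF6 and SRSF11 (16.7%, against 14.5% of all genes). The median fold change of the 12 was −0.67, against −0.36 for all genes tested. With centring on medians it was −0.33, with quantile normalization −0.37, and with a trend along GC content removed −0.0084, where 6 of the 12 stayed negative. Relative to the median of all genes it was −0.32 as deposited, −0.32 with centring and −0.28 with quantile normalization. SRSF7 was the one gene of this class with a positive value.

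SRSF6 (ENSG00000124193, chromosome 20, 42086533 to 42094686 on the plus strand of GRCh37), an SR protein with a pair of RNA recognition motifs, was at 30.9 and 65.4 FPKM in control and at 12.8 and 12.6 in GLUP. Its groups were well apart, with the lower control more than 2-fold above either GLUP library. The fold change was −1.75 ± 0.44 (SE, n = 2 per group; limma, adjusted p = 0.10). SRSF6 met the rule for lower under each of the 15 alternative settings, which no other member did. SRSF11 (chromosome 1, 70671365 to 70718735, plus strand), an SR-related protein that contacts the factors at the 3′ splice site, read 10.2 and 19.7 FPKM in control and 3.31 and 4.17 in GLUP. Again no control value came near a GLUP value, and the fold change was −1.69 ± 0.39 (limma, adjusted p = 0.10). SRSF11 met the rule under 13 of the 15 alternatives and missed it where a trend along GC content was removed, at −0.87.

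The relatives of SRSF6 in the SRSF4, SRSF5 and SRSF6 group differed from it. SRSF5, whose RNA is known to respond to growth signals, read 27.5 and 53.1 FPKM in control and 19.1 and 19.6 in GLUP, a fold change of −0.95 ± 0.41 (limma, adjusted p = 0.175). It was −0.48 without control replicate 2 and −0.25 with the GC trend removed. SRSF4 was scarce, at 6.12 and 2.25 FPKM in control and 1.45 and 2.74 in GLUP. Its groups overlapped. Its fold change of −0.67 came to −1.23 without control replicate 2 and to −0.10 without control replicate 1. It was −0.36 without GLUP replicate 1, −0.97 without GLUP replicate 2 and 0.019 with the GC trend removed. The log2 ratio of SRSF5 to SRSF6 within a library was −0.17 and −0.30 in control and 0.58 and 0.64 in GLUP. SRSF6 RNA thus stood above SRSF5 RNA in each control library and below it in each GLUP library, a comparison that does not depend on how libraries are scaled.

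SRSF2, also known as SC35 and used as a marker of nuclear speckles, read 19.1 and 24.9 FPKM in control and 12.3 and 13.0 in GLUP (fold change −0.74 ± 0.32). TRA2A, which binds exonic enhancers rich in GAA, read 5.30 and 8.92 in control and 3.93 and 2.26 in GLUP (−0.98 ± 0.38). In both genes the GLUP libraries lay below the controls, and neither had an adjusted p under 0.05 (limma, 0.174 and 0.145). The fold changes were −0.30 for SRSF2 and −0.31 for TRA2A with the GC trend removed. TRA2B, the more abundant of the TRA2 pair, read 23.9 and 40.4 in control and 18.4 and 28.0 in GLUP, so that its groups overlapped. The ratio of TRA2A to TRA2B was nearly equal in 3 libraries, at −2.17 and −2.18 on the log2 scale in the controls and −2.23 in GLUP replicate 1, and stood apart at −3.63 in GLUP replicate 2.

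SRSF3 and SRSF7, small SR proteins that also take part in RNA export and 3′ end choice, were the most abundant of the class. SRSF3 read 56.9 and 87.3 FPKM in control and 50.9 and 46.4 in GLUP, and SRSF7 (chromosome 2, 38970741 to 38978636, minus strand) read 71.2 and 42.3 in control and 83.9 and 75.7 in GLUP. As deposited, the pair had fold changes of opposite sign, −0.53 ± 0.36 and 0.53 ± 0.38, neither past the test (limma, adjusted p = 0.332 and 0.353). Without control replicate 2 they were −0.22 and 0.16, and with the GC trend removed both were positive, at 0.20 and 1.19. The log2 ratio of SRSF3 to SRSF7 was −0.32 and 1.04 in control and −0.72 and −0.71 in GLUP.

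The remaining SR genes were close to the median of all genes or scarce. SRSF10, a splicing repressor when it loses its phosphates, read 34.7 and 26.6 FPKM in control and 18.0 and 30.4 in GLUP, and its groups overlapped. SRSF1, the first SR protein described, read only 3.52 and 2.53 FPKM in control and 2.02 and 2.14 in GLUP. SRSF9, its nearest relative, read 2.71 and 4.51 in control and 1.66 and 2.02 in GLUP. The SRSF9 locus overlaps DYNLL1 on the opposite strand, which read 759 to 1285 FPKM, and the sources used here do not say if reads were counted by strand. SRSF8, an intronless relative of SRSF2 with a mean under 1 FPKM, read 1.29 and 0.982 in control and 0.319 and 0.298 in GLUP, and SRSF12 was at 0 in 3 libraries and at 0.444 FPKM in control replicate 2.

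All 12 SRSF and TRA2 genes tested have at least 1 annotated transcript marked as a target of nonsense-mediated decay in GENCODE, against 52.8% of the 6387 protein-coding genes tested, and 11 of them have a transcript with a retained intron. For the 20 HNRNP genes tested both numbers were 14. These are properties of the annotation, which lists more transcripts for the members (a median of 13 per gene, against 9 for the protein-coding genes tested), and not measurements on these libraries.

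**Figure D2:**
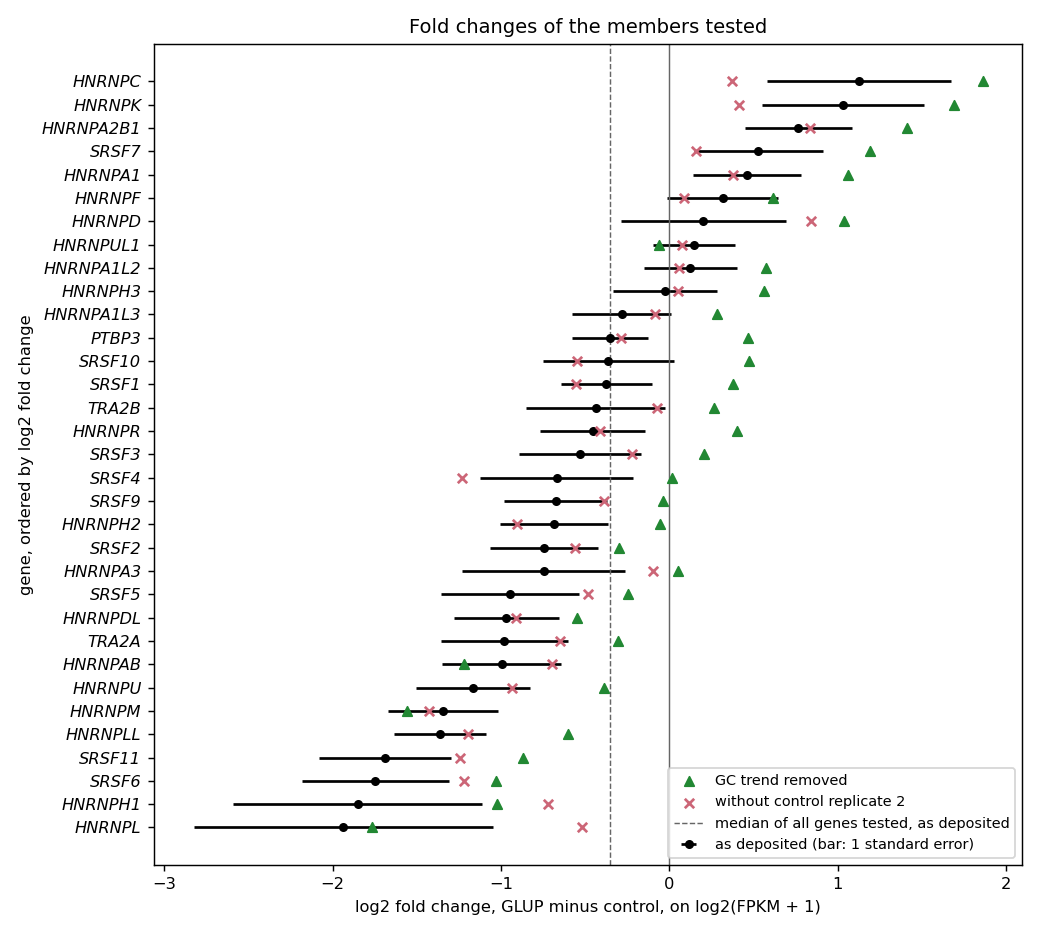
Fold changes of the 33 members tested on the log2(FPKM + 1) scale (black points, with bars of 1 standard error; n = 2 libraries per group), with the values after a GC trend was removed (triangles) and without control replicate 2 (crosses). The dashed line is the median of all genes tested, −0.36. SRSF6, SRSF11 and HNRNPM keep values below −0.8 in all 3, whereas HNRNPL and HNRNPH1 move toward 0 without control replicate 2.

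The hnRNPs were divided, as was the table as a whole. Of 20 tested, 12 had a negative fold change and 8 a positive one, where 66.7% of all genes tested were negative. The rule for lower was met by 4 (HNRNPH1, HNRNPLL, HNRNPM and HNRNPU), 20% against 14.5% of all genes. Both GLUP libraries lay below both controls for 10 (50%, against 49.7% of all genes) and above them for 6 (30%, against 17.5%). Among these 6 were near ties. The lower GLUP value and the higher control value were 1.798 and 1.796 FPKM for HNRNPUL1 and 14.48 and 14.41 for HNRNPF. The median of −0.37 was near that of all genes. HNRNPA2B1, HNRNPA1, HNRNPC and HNRNPK, which are among the most abundant hnRNPs, were on the higher side.

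HNRNPM (ENSG00000099783, chromosome 19, 8509651 to 8553998, plus strand) binds GU-rich sequence and is known for exons that differ between epithelial and mesenchymal cells. It read 49.5 and 44.2 FPKM in control and 15.9 and 19.9 in GLUP. Both groups were tight, the control mean was 2.61 times that of GLUP, and the fold change was −1.34 ± 0.32 (limma, adjusted p = 0.10). Over all alternatives its value stayed between −1.56 and −1.0, and it met the rule for lower in 12 of 15, but not with either GLUP library left out or with quantile normalization. At 54.9% GC it lies in the bin of 49.0 to 55.3% GC, where the median fold change of all genes was 0.018.

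HNRNPU, also called SAF-A, a scaffold protein of chromatin, read 20.5 and 28.6 FPKM in control and 11.2 and 9.32 in GLUP (−1.17 ± 0.34; limma, adjusted p = 0.107). The COX20 gene overlaps it on the opposite strand and read 127 and 173 FPKM in control and 41.4 and 38.6 in GLUP, so the neighbours were lower together and their reads may not be separable. With the GC trend removed HNRNPU was at −0.39. Its relative HNRNPUL1 was even across the libraries, from 1.54 to 2.10 FPKM. The log2 ratio of HNRNPU to HNRNPUL1 was 3.51 and 4.22 in control and 2.64 and 2.15 in GLUP. The GC content was 37.9% for HNRNPU and 54.9% for HNRNPUL1. The fold change of HNRNPUL1 was 0.15 as deposited and −0.061 with the GC trend removed, where the pair lay closer together.

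HNRNPL and HNRNPLL bind CA repeats. HNRNPLL, known for the switch of CD45 isoforms in T cells, was scarce, at 2.98 and 4.04 FPKM in control and 0.566 and 0.936 in GLUP. Its groups were clearly apart, with a control mean 4.68 times that of GLUP and a fold change of −1.36 ± 0.27 (limma, adjusted p = 0.10). With the GC trend removed it was at −0.60 and no longer met the rule for lower. HNRNPL (chromosome 19, 39327010 to 39342987, minus strand of GRCh37) had the lowest fold change of all members, −1.94 ± 0.89 (limma, adjusted p = 0.190), yet it rested on 1 library. It read 10.0 FPKM in control replicate 1, 78.0 in control replicate 2, and 6.16 and 7.30 in GLUP, and without control replicate 2 its fold change was −0.52.

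HNRNPH1 showed the same pattern more strongly in absolute terms. This member of the group that binds runs of G (chromosome 5, 179041179 to 179061785, minus strand) read 88.9 FPKM in control replicate 1, 431 in control replicate 2, and 59.7 and 48.2 in GLUP. It made up 38.0% of the summed hnRNP values in control replicate 2 and 5.54 to 10.2% in the other libraries. Its fold change was −1.85 ± 0.74 (limma, adjusted p = 0.155), and −0.72 without control replicate 2, where it no longer met the rule. HNRNPH2, its close relative on the X chromosome, read 14.2 and 10.2 in control and 7.50 and 6.73 in GLUP, without the high value in control replicate 2. A read-through gene, RPL36A-HNRNPH2, overlaps HNRNPH2 on the same strand and was listed at 14.6 FPKM in GLUP replicate 2 and at 0 in the other libraries, so HNRNPH2 is uncertain there. HNRNPH3 was even (16.8 to 19.2 FPKM), and HNRNPF read 14.4 and 10.2 in control and 16.3 and 14.5 in GLUP. The log2 ratio of HNRNPF to HNRNPH1 was −2.62 and −5.40 in control and −1.87 and −1.73 in GLUP.

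HNRNPAB, HNRNPD and HNRNPDL are related proteins that bind AU-rich RNA, and HNRNPD, also called AUF1, is known for its part in mRNA decay. HNRNPDL read 87.1 and 94.1 FPKM in control and 45.7 and 45.9 in GLUP. Both groups were tight and far apart, with a fold change of −0.97 ± 0.31 (limma, adjusted p = 0.118). HNRNPAB read 21.7 and 33.3 in control and 12.2 and 13.8 in GLUP (−1.0 ± 0.35; limma, adjusted p = 0.131). Removal of the GC trend left HNRNPDL at −0.55 and HNRNPAB at −1.22. HNRNPD did not go with them. It read 15.0 and 37.9 FPKM in control and 29.6 and 26.0 in GLUP, and its fold change of 0.20 became 0.84 when control replicate 2 was left out and −0.44 when control replicate 1 was.

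HNRNPD and HNRNPDL lie 48.1 kb apart on chromosome 4, on the same strand. The log2 ratio of HNRNPD to HNRNPDL was −2.54 and −1.31 in control and −0.63 and −0.82 in GLUP, and that of HNRNPD to HNRNPAB was −0.53 and 0.19 in control and 1.28 and 0.91 in GLUP. HNRNPLL and SRSF7, 140.0 kb apart on chromosome 2, also went different ways.

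Among the abundant hnRNPs that stood higher, HNRNPA2B1 (ENSG00000122566, chromosome 7, 26210771 to 26241149, minus strand), a splicing silencer that also sorts RNA into exosomes, had the steadiest values. It read 55.6 and 61.5 FPKM in control and 106 and 94.4 in GLUP. Both GLUP libraries were over 1.5-fold above either control, and the fold change was 0.77 ± 0.32 (limma, adjusted p = 0.164). Its value lay between 0.68 and 1.41 over the alternatives, always positive. CBX3 overlaps HNRNPA2B1 on the opposite strand and read 17.7 and 33.3 FPKM in control and 25.4 and 22.9 in GLUP. HNRNPA1, the best-known hnRNP silencer of exons, read 122 and 109 in control and 174 and 146 in GLUP (0.46 ± 0.32; limma, adjusted p = 0.335). Reads of HNRNPA1 may be shared with its 74 annotated pseudogenes, whose summed FPKM was 7.39 to 8.55% of the total of gene and pseudogenes. The log2 ratio of HNRNPA1 to HNRNPA2B1 was 1.14 and 0.83 in control and 0.71 and 0.63 in GLUP. HNRNPA3, the third of this group, was high only in control replicate 2, at 29.9 FPKM against 11.6 in control replicate 1 and 10.9 and 10.6 in GLUP. NFE2L2 overlaps it on the opposite strand and read 5.83 and 12.4 in control and 3.04 and 2.52 in GLUP. Pseudogenes of HNRNPA3 held 14.2 to 18.5% of the summed values of gene and pseudogenes.

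HNRNPC (ENSG00000092199, chromosome 14, 21677295 to 21737653, minus strand of GRCh37) binds runs of U and keeps Alu sequence from being spliced in as exons. It had the highest fold change of the members, 1.13 ± 0.55 (limma, adjusted p = 0.207). Its FPKM was 207 in control replicate 1, 72.3 in control replicate 2, and 304 and 238 in GLUP. HNRNPK (chromosome 9, 86582998 to 86595546, minus strand), which binds runs of C through KH domains, read 106 and 44.5 in control and 136 and 148 in GLUP (1.03 ± 0.48; limma, adjusted p = 0.195). For both genes control replicate 2 held the low value, and without it the fold changes were 0.38 and 0.41. HNRNPK-AS1, an antisense RNA inside HNRNPK, read 1.18 and 1.09 FPKM in control and 0.222 and 0.182 in GLUP. Pseudogenes of HNRNPC held 10.8 to 12.8% of the summed values of gene and pseudogenes.

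The other HNRNP genes tested (HNRNPA1L2, HNRNPA1L3, HNRNPR and HNRNPUL1 together with HNRNPA3, HNRNPF, HNRNPH2 and HNRNPH3 above) had fold changes from −0.75 to 0.32, and none had an unadjusted p under 0.05 with limma. HNRNPUL2 read 0.555 and 0.523 FPKM in control and 0.273 and 0.223 in GLUP and was too scarce to test. HNRNPA0 lay between 0.136 and 0.230 FPKM, the read-through gene HNRNPUL2-BSCL2 was above 0 in control replicate 2 alone, and HNRNPCL1 and HNRNPCL2 were listed at 0 in every library.

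The PTBP genes, which encode repressors that bind pyrimidine-rich tracts, were low in this table. PTBP3 read 1.28 and 1.5 FPKM in control and 0.905 and 0.838 in GLUP, a fold change of −0.35 ± 0.22 (limma, adjusted p = 0.299), near the median of all genes. PTBP1, the form that most dividing cells use, was listed at 0.110 and 0.831 FPKM in control and at 1.60 and 0.146 in GLUP. Its values differed more within each group than between the groups. PTBP2, the neuronal form, stayed under 0.2 FPKM.

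The SR genes and the hnRNP genes also differed as pools. The 14 SRSF and TRA2 genes summed to 293 and 379 FPKM in control and 228 and 239 in GLUP, so that both GLUP libraries lay below both controls. As single genes, 49.7% of all genes tested also lay below in this way. The 25 HNRNP genes summed to 870 and 1136 in control and 973 and 870 in GLUP, with overlapping groups. The hnRNP sum was 2.96 and 2.99 times the SR sum in the control libraries and 4.27 and 3.63 times in the GLUP libraries. Leaving out HNRNPH1, chosen after its values were seen, gave 2.66 and 1.86 in control and 4.01 and 3.43 in GLUP. Neither the sums nor the ratio were recomputed with the GC trend removed, which brought the median fold change of the SR genes to −0.0084. With 2 libraries against 2 the smallest two-sided p of an exact permutation test is 0.333, so that test cannot pass 0.05 here, and no other test of this ratio was made.

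Within the SR pool the make-up differed. SRSF7 took 24.3 and 11.2% of the SR sum in control and 36.8 and 31.6% in GLUP. SRSF6 took 10.5 and 17.2% in control and 5.60 and 5.28% in GLUP. The share of SRSF3 was alike in both groups, at 19.4 and 23.0% in control and 22.3 and 19.4% in GLUP. SRSF7 was thus the largest part of the SR pool in both GLUP libraries and in control replicate 1, and SRSF3 in control replicate 2.

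Of the 19 pairs of related members that were set side by side, 18 had values above 0 in every library. The GLUP ratio lay above both controls in 6 pairs, below both in 5 and between or among them in 7. For single genes, both GLUP libraries lay on one side of both controls in 67.2% of all genes tested, so a count of 11 in 18 is near that background. The pairs whose ratio was tight in both groups were SRSF5 to SRSF6 (SD 0.09 in control and 0.04 in GLUP) and HNRNPA1 to HNRNPA2B1 (0.22 and 0.05). Most other ratios varied more between the controls than between the GLUP libraries. SRSF2 to SRSF8 also rested on values near 1 FPKM, and with a pseudocount of 1, added after the data were seen, its difference changed sign. The ratios of HNRNPH1 to HNRNPH2, HNRNPL to HNRNPLL, HNRNPU to HNRNPUL2, SRSF1 to SRSF9, SRSF4 to SRSF6 and PTBP1 to both PTBP2 and PTBP3 overlapped.

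**Figure D3:**
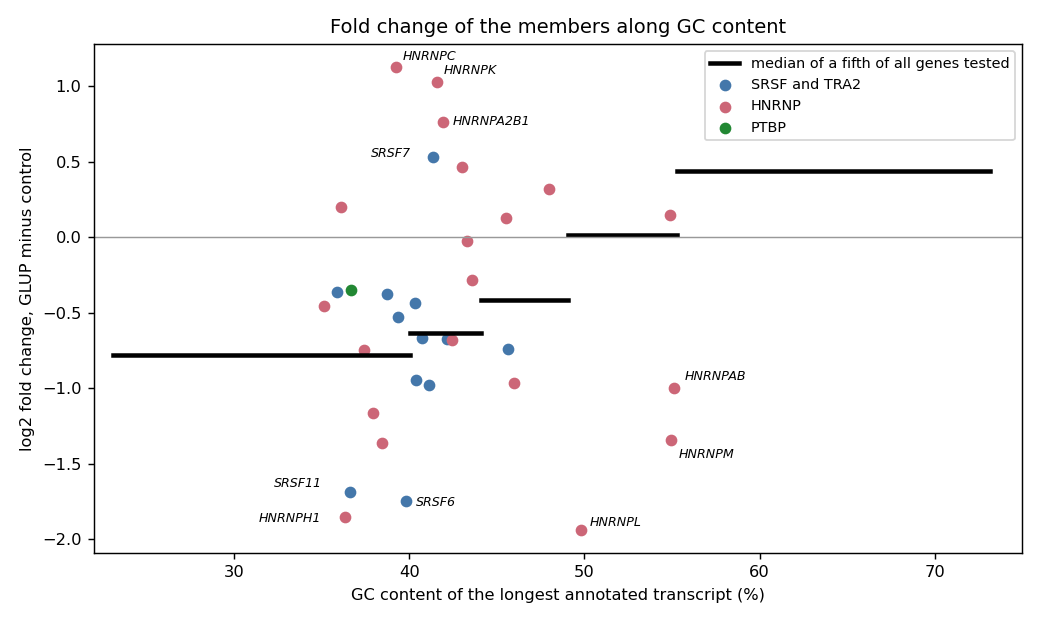
Fold change of the 33 members tested (points, coloured by class) against the GC content of the longest annotated transcript of each gene. Black lines give the median fold change of all genes tested in each of 5 bins of equal gene number by GC content, which runs from −0.78 in the lowest bin to 0.44 in the highest; HNRNPM, HNRNPAB and HNRNPL lie well below the line of their bin, and HNRNPC, HNRNPK, HNRNPA2B1 and SRSF7 above it.

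Fold changes in these libraries moved with GC content over the whole table. Across 7570 genes with a known sequence Spearman's rho was 0.58, as a description across genes that share 4 libraries. The members were AT-rich, with a median GC content of 41.1% against 46.3% for the protein-coding genes tested, and 25 of the 33 lay in the lowest 2 of 5 bins by GC content. Along the 33 members rho was 0.06. With the trend removed from each library, the median of the members came to 0.05 instead of −0.53, with 15 members below 0 and 18 above. By the same rule 3 members were then lower (HNRNPAB, HNRNPM and SRSF6, against 4.57% of all genes) and 6 higher (HNRNPA1, HNRNPA2B1, HNRNPC, HNRNPD, HNRNPK and SRSF7, against 4.68%). Whether the trend comes from the treatment or from the libraries was not tested.

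Over the main values and 15 alternatives (14 for members under a mean of 5 FPKM, which one of them leaves out), 14 members were negative in each that was run, among them SRSF2, SRSF5, SRSF6, SRSF9, SRSF11, TRA2A, HNRNPDL, HNRNPM and HNRNPU. Another 7 were positive in each (HNRNPA1, HNRNPA1L2, HNRNPA2B1, HNRNPC, HNRNPF, HNRNPK and SRSF7), and the other 12 changed sign in at least 1 alternative. Other gene filters, no variance trend and the replicate block alone leave a fold change as it is. Leaving out 1 library cannot change the sign of a member whose groups do not overlap. These sign counts were therefore partly fixed in advance, and the share over all genes was not computed. Of the 14 negative members, SRSF9 and HNRNPH2 were close to 0 with the GC trend removed, at −0.036 and −0.056. The control libraries differed from each other by more than 2-fold for 8 members (24.2%, against 30.3% of all genes tested), namely HNRNPA3, HNRNPC, HNRNPD, HNRNPH1, HNRNPK, HNRNPL, SRSF4 and SRSF6. No member differed by that much between the GLUP libraries, where 6.10% of all genes did.

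Other genes of the splicing machinery were read from 5 lists. Over all genes tested the median was −0.36, with 14.5% lower and 4.67% higher by the same rule. Among 7 tested genes for SR protein kinases and import the median was −0.67, with 1 lower and 0 higher. CLK1, a kinase that phosphorylates SR proteins in the nucleus, read 6.61 and 7.56 FPKM in control and 1.86 and 2.75 in GLUP (−1.30), and PRPF4B was at −0.95. SRPK2 (−0.16) and CLK3 (0.79) had the highest values of this list. The 13 genes of the U2 snRNP and 3′ splice site had a median of −0.53, with 2 lower (SNRPA1 and SF3B1, both −1.06) and 1 higher (PUF60, 1.32), and PHF5A at 0.53.

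The 14 genes of the U1 snRNP and Sm core had a median of −0.56. Their extremes were SNRPF at −0.96 and SNRPD1 at −0.86, against SNRPC at 0.96 and SNRPB, which encodes a core Sm protein, at 2.46. SNRPB read 74.9 and 14.7 FPKM in control and 209 and 171 in GLUP and was the 1 gene of this list that met the rule for higher, while 0 met that for lower. The 19 tri-snRNP and PRP19 genes had a median of −0.08, with 3 lower and 2 higher, from TXNL4A (−1.47) and BCAS2 (−1.42) to XAB2 (1.11) and SNRNP200 (1.35). The 29 other splicing regulators had a median of −0.32, with 4 lower and 0 higher, from TIAL1 (−1.61) and SRRM1 (−1.45) to TAF15 (0.38) and EWSR1 (1.16). No gene of these lists had an adjusted p under 0.05 with limma, and 27 of the 82 tested (32.9%) had an unadjusted p under it, against 31.7% of all genes. Each list held genes on both sides, as did the members and the whole table, where 66.7% of genes tested had a negative fold change.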

How the data were processed

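RNA of HGC-27 cells was sequenced in 4 libraries, 2 GLUP and 2 control. Reads were analysed by the authors on the cloud platform of Majorbio, and FPKM values per gene were deposited. HISAT2, Cufflinks, RSEM and GRCh38.p10 are named in the submitters' processing notes without role or version, whereas the gene IDs have the form of a GENCODE annotation lifted to GRCh37; gene positions, GC content and transcript types are from GENCODE v44 lifted to GRCh37. Rows of one ID were summed (62492 rows to 62443 IDs) and 99.55% of IDs matched a name. Genes averaging 1 FPKM or more were fitted on log2(FPKM + 1) with limma 3.58.1 (R 4.3.3, trend in the variance), with Benjamini-Hochberg adjustment over 7588 genes. The fit was also run on simulated data with independent noise drawn from its own variances. That run does not test how the fit behaves with a control like replicate 2. The members and lists were chosen with earlier results of these data known. Values are given for each SRSF, TRA2 and PTBP gene tested, the 10 HNRNP genes of highest mean, members with a fold over 2 whose groups do not overlap, related pairs and the 2 highest and 2 lowest of each list; SNRPB, CLK1, COX20, DYNLL1 and scarce members were described further after their values were seen. As alternatives, the pseudocount was set to 0.1, the minimum mean to 5 FPKM or to any value above 0, and libraries were centred on their medians or quantile-normalized. Others were scaling to nuclear protein-coding genes, no variance trend, a replicate block, removal of a GC trend (lowess per library, span 0.3) with and without the block, pseudogenes added to their parent, a fold of 1.5, and leaving out each library. Promoter sequences are from RefSeq (GRCh38.p14). With no counts or depth in the files, no counting error can be given.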

Additional observations from a re-analysis of the deposited data

How the results depend on the processing

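The counts of members called and the median depended on scaling, GC content and single control libraries. The median fold change of the members (−0.53) was −0.18 with centring on medians, −0.29 with quantile normalization and 0.050 with the GC trend removed, with or without the replicate block, and −0.68 to −0.41 when 1 library was left out. With centring and quantile normalization the median of all genes moved too. Relative to it the members' median was −0.17 as deposited, −0.17 with centring and −0.20 with quantile normalization. The count of members higher (0) was 3 with centring, 2 with quantile normalization, 1 with the replicate block and 6 with the GC trend removed, with or without the block, and 0 to 2 with 1 library left out. The count lower (6) was 3 with quantile normalization and with the GC trend removed, and 3 to 12 with 1 library left out (12 without control replicate 1, 3 without GLUP replicate 1 and 3 without GLUP replicate 2). Members past an adjusted p (0) numbered 0 to 19 with 1 library left out, 19 without control replicate 1 and 9 without control replicate 2, where 4038 and 1421 of all genes passed; in those fits the lone control is assumed to vary like the GLUP pair. Pairs without overlap (11) were 12 to 17 with 1 library left out, the highest without control replicate 2. Leaving out a library cannot make separate groups overlap, so this count could not fall. The share over all genes with 1 library left out was not computed.

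With the GC trend removed the sign changed for HNRNPH3 (0.56), SRSF10 (0.48), PTBP3 (0.47), HNRNPR (0.40), SRSF1 (0.38), HNRNPA1L3 (0.28), TRA2B (0.26), SRSF3 (0.20), HNRNPA3 (0.050), SRSF4 (0.019) and HNRNPUL1 (−0.061), for the hnRNP median (0.17), for the medians relative to all genes of the members (0.049) and of the hnRNPs (0.17), and for the ratio of HNRNPL to HNRNPLL (−1.16), in each case alike with the block where it was run. HNRNPH3 was at 0.32 with centring and 0.35 with quantile normalization, and HNRNPA1L3 at 0.060 and 0.0059. The hnRNP median relative to all genes (−0.01) was 0.040 with a pseudocount of 0.1, 0.056 with quantile normalization and −0.13 to 0.25 with 1 library left out. With 1 library left out HNRNPH3 ran from −0.11 to 0.058 and HNRNPD from −0.44 to 0.84, while the log2 ratios of SRSF1 to SRSF9 (−0.19 to 1.02), SRSF4 to SRSF6 (−0.34 to 2.19), HNRNPH1 to HNRNPH2 (−2.49 to 0.27), HNRNPU to HNRNPUL2 (−0.40 to 0.17), PTBP1 to PTBP2 (−0.29 to 4.32), PTBP1 to PTBP3 (−0.32 to 3.02) and HNRNPL to HNRNPLL (−1.07 to 1.45, and −0.046 without GLUP replicate 1) ran through 0. With a pseudocount of 1 the ratio of SRSF2 to SRSF8 was −0.038 and that of HNRNPL to HNRNPLL −0.57. The cause was not tested for any of these. Of 487 recomputed member fold changes, 29 changed sign and 430 kept direction and side of the adjusted threshold. The rest kept direction and crossed the threshold only in fits without a control library. Gene filters, the variance trend and the block alone leave a fold change as it is, so part of these directions was fixed in advance.

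Replicate numbers are shared by the groups, but the deviations of replicates numbered 1 correlated at 0.13 across genes with 2 pairs, so they share a number and no known day. The replicate block gave 7 members lower and 1 higher in place of 6 and 0. A fold of 1.5 gave 9 lower.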
